A study of Mus musculus with 9 samples.

Results

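Of 9 mouse lymphomas, 3 had high mRNA levels of the genes of chromosome 3 as a whole, and these 3 were compared with the other 6. The high set was Eμ-Myc replicate 1 and Eμ-Myc;Eμ-TTP-1 replicates 1 and 5. The other lymphomas were Eμ-Myc replicates 2, 3 and 4 and Eμ-Myc;Eμ-TTP-1 replicates 2, 3 and 4. The sets were chosen by the median level of chromosome 3 genes in each array, so the values of chromosome 3 genes are given as a description, with no test. Genes on the other chromosomes did not enter that choice and were tested. Of 18032 genes named on the array, 913 lie on chromosome 3, and 508 of these passed a filter on low values (log2 over 4 in at least 4 of the 9 arrays). The other 405 did not pass. Off chromosome 3, 9637 genes passed.

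In Eμ-Myc mice the immunoglobulin heavy chain enhancer (Eμ) drives Myc in B lineage cells, and the mice develop B cell lymphomas. Such lymphomas arise as clones and can carry gains or losses of whole chromosomes. A gained chromosome is known to raise the mRNA of many of its genes by a modest factor, with wide variation between genes. Mouse chromosome 3 carries growth and survival genes known from lymphoma, among them Nras and Mcl1, as well as the S100 gene cluster, of which S100a8 and S100a9 are abundant in granulocytes. DNA copy number was not analysed here.

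The study profiled lymphomas of mice with the Eμ-Myc transgene alone (4 arrays) or with Eμ-Myc and Eμ-TTP-1 (5 arrays), on a strain background of 94% C57BL/6, with 1 Affymetrix mouse array per lymphoma. TTP (tristetraprolin, gene Zfp36) promotes the decay of mRNAs with AU-rich elements. Every lymphoma carried Eμ-Myc, both transgenes are named for the same B lineage enhancer, and the labels call the samples biological replicates and give no age or treatment. The high set held 1 Eμ-Myc and 2 Eμ-Myc;Eμ-TTP-1 lymphomas, and the rest held 3 of each. Genotype entered the limma tests of single genes as a covariate, but not the exact permutation tests of whole chromosomes. All levels are log2 of probe set intensities, and each difference is the high set minus the rest. The median intensity per array was 12.2 to 13.4, and precision is limited by the small number of arrays. The B lineage markers Cd79a (13.24 to 14.06) and Pax5 (8.32 to 9.65) were detected in all 9 arrays. Eμ-Myc replicate 1 stood apart from the other arrays in cell cycle genes, as described below, and received the lowest of the array weights estimated by limma, 0.350. The medians of gene lists are given without it where leaving it out moved them by over 1.5 times or turned their sign.

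Each gene was set against its own median over the 9 arrays, and the deviations of the 508 chromosome 3 genes were summarised per array. Their median was 0.25 in Eμ-Myc replicate 1, 0.26 in Eμ-Myc;Eμ-TTP-1 replicate 1 and 0.26 in Eμ-Myc;Eμ-TTP-1 replicate 5. The same median was -0.18, -0.21 and 0.00 in Eμ-Myc replicates 2, 3 and 4, and -0.07, -0.01 and -0.06 in Eμ-Myc;Eμ-TTP-1 replicates 2, 3 and 4. The lowest array inside the high set was thus 0.25 above the highest array outside it, Eμ-Myc replicate 4. On this measure, which chose the sets, the high set was narrow, at 0.255 ± 0.0031 (SD, n = 3), and the rest was wider, at -0.09 ± 0.09 (SD, n = 6). Eμ-Myc replicates 2 and 3 lay below the other 4 lymphomas of the rest. Against the mean of those 4, the high arrays had chromosome 3 medians of 0.36, 0.38 and 0.34, in the order above. Genes off chromosome 3 had medians of -0.11, -0.04 and -0.05 in the same arrays, so the narrow spread depends on the reference. In the high set, 66.7%, 71.7% and 76.0% of chromosome 3 genes exceeded their own median over the arrays. In the rest that share was 20.9% to 46.9%.

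**Figure D1:**
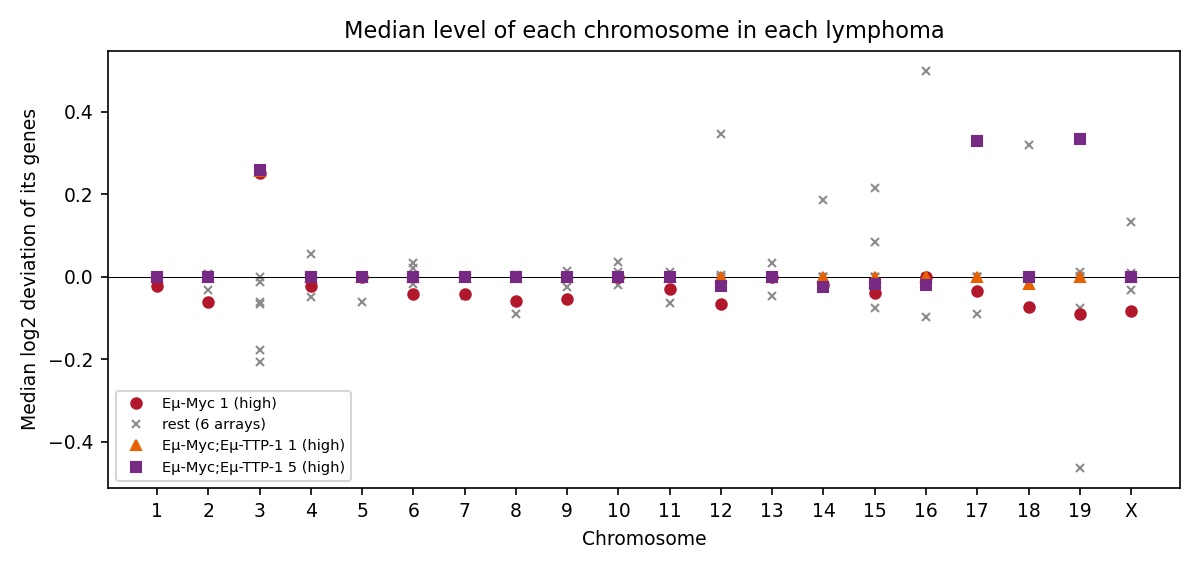
Median log2 deviation of the genes of each chromosome (horizontal axis) in each of 9 lymphomas, where a gene's deviation is its log2 level minus its median over the 9 arrays. Coloured symbols are the 3 lymphomas of the high set and grey crosses the other 6. On chromosome 3 the coloured symbols overlap near 0.26 and every cross lies at 0.00 or below; on chromosomes 17 and 19 only Eμ-Myc;Eμ-TTP-1 replicate 5 is raised, at 0.33.

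Gene by gene, the median difference of the 508 chromosome 3 genes was 0.42, a 1.34-fold higher level, with an interquartile range of 0.17 to 0.63. The mean was higher in the high set for 425 genes (83.7%), beside 43.6% of the genes off chromosome 3. For 141 genes (27.8%) every high array exceeded every array of the rest, beside 1.14% off chromosome 3. For 1 gene, S100a6, every high array was below the rest, beside 1.77% of genes off chromosome 3. These shares restate the choice of the sets. Without Eμ-Myc replicates 2 and 3, the lowest arrays, the median difference was 0.36, or 1.29-fold. Within Eμ-Myc it was 0.41 (1 array against 3), and within Eμ-Myc;Eμ-TTP-1 it was 0.39 (2 arrays against 3). Off chromosome 3 the same medians were -0.07 and -0.04.

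**Figure D2:**
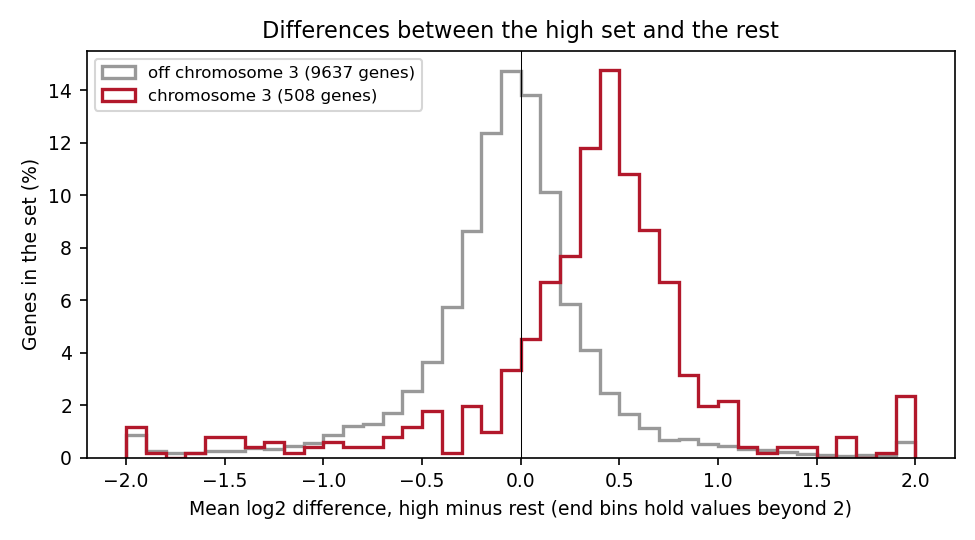
Distribution of the mean log2 difference, high set (3 arrays) minus rest (6 arrays), for 508 chromosome 3 genes (red) and 9637 genes on other chromosomes (grey), as the percentage of each set per bin of 0.1; the end bins hold values beyond 2. The red outline is shifted as a whole, with its median at 0.42 against -0.04 for the grey one.

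The shift was present in each part of the chromosome. The 508 genes were divided by their order into 8 parts of 63 or 64 genes, from Pex2 to Spry1 in the first to Ube2d3 to Wls in the last. The median difference was between 0.35 (the part from Man1a2 to Clcc1) and 0.47 (from Lamtor2 to Tuft1). In 8 of 8 parts the median deviation of every high array exceeded that of every other array, by 0.15 to 0.34. The high arrays lay between 0.15 and 0.40 over the parts. Eμ-Myc replicates 2 and 3 lay between -0.31 and -0.07 and the other 4 lymphomas between -0.16 and 0.01. The smallest distance was in the last part, where Eμ-Myc;Eμ-TTP-1 replicate 1 was at 0.15 and Eμ-Myc replicate 1 at 0.38.

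**Figure D3:**
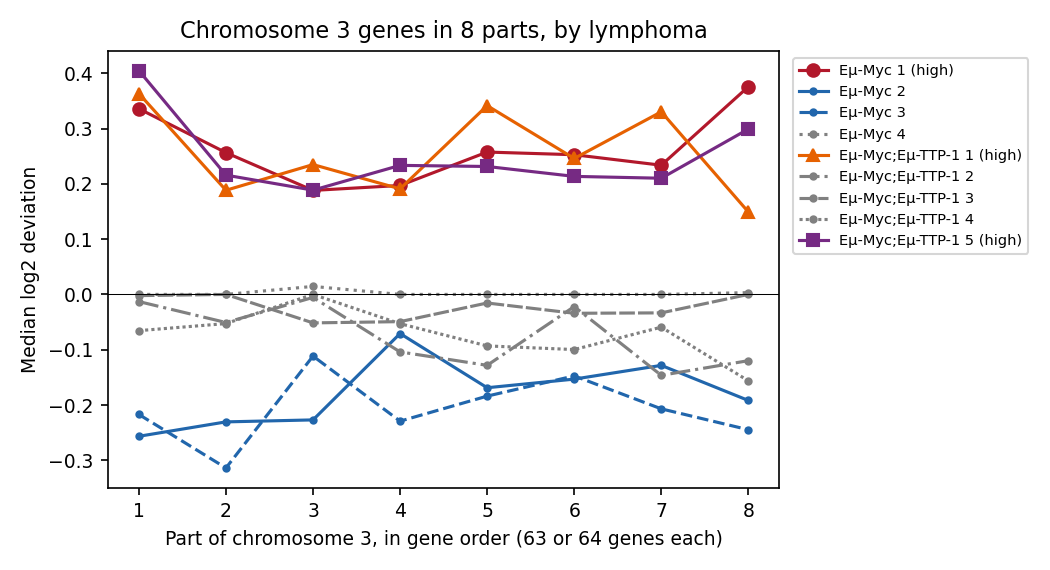
Median log2 deviation (vertical axis) of the genes in each of 8 consecutive parts of chromosome 3, in gene order (horizontal axis), with 1 line per lymphoma. The 3 high lymphomas lie between 0.15 and 0.40 in every part, above all 6 others, and Eμ-Myc replicates 2 and 3 (blue) reach down to -0.31.

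The difference was more even in genes with a higher signal and in genes that varied less elsewhere. In 4 groups of 127 chromosome 3 genes by mean level, the median difference was 0.23 in the lowest group and 0.45, 0.46 and 0.44 in the others. The share of genes that were higher in the high set was 63.8%, 84.3%, 88.2% and 98.4%, from the lowest to the highest group. In the same ranges of level off chromosome 3 it was 42.8% to 44.0%. In 4 groups by the SD over the 6 arrays of the rest, 127 of 127 genes of the steadiest group were higher, with a median of 0.41. In the most variable group, 59.1% were higher, and it held 47 of the 59 chromosome 3 genes that differed by more than 1 in either direction. Some genes had further probe sets, which share the choice of the sets and are no independent reading. On chromosome 3, 447 other probe sets of 266 genes had a median difference of 0.47, and 96.9% had the sign of the gene's main probe set. Off chromosome 3, 77.2% of 7840 other probe sets had that sign, with a median difference of -0.02. The 405 genes under the filter had a median difference of 0.03, the same as the 0.03 of such genes off chromosome 3.

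Promoters of 3 chromosome 3 genes are shown because MYC with its partner MAX is known to bind the E-box CACGTG and because these genes had the highest mean intensity, with and without that motif, among those whose high arrays all exceeded the rest. They come from RefSeq (GRCm38.p6) and run from 250 bases before to 50 bases after the listed start, at chr3:51415766-51416065 for Naa15, chr3:105959248-105959547 for Wdr77 and chr3:135437982-135438281 for Ube2d3, all on the plus strand. Capitals mark CACGTG, which reads the same on both strands.
Naa15: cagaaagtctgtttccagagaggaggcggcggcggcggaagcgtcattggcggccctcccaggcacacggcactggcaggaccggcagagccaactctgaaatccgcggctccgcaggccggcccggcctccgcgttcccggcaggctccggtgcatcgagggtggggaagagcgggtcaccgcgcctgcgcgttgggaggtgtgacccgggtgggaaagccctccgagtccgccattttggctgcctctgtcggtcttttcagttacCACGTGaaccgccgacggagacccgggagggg
Wdr77: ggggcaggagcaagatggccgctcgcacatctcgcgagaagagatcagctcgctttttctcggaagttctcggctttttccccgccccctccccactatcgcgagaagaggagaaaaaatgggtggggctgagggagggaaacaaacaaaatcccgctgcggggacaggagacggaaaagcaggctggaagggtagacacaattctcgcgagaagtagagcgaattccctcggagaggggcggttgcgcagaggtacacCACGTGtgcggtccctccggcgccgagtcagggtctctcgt
Ube2d3: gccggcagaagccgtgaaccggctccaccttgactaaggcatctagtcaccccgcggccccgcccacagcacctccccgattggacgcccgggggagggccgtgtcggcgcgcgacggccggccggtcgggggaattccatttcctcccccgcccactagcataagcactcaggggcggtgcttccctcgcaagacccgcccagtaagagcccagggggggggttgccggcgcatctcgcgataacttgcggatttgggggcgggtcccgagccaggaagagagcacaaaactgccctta
The Naa15 and Wdr77 promoters held 1 motif each and the Ube2d3 promoter held 0. Naa15, a subunit of the NatA N-terminal acetyltransferase, had a difference of 0.58. Wdr77, the partner of the arginine methyltransferase PRMT5, had a difference of 0.66. Of 422 chromosome 3 genes past the filter with a promoter in the table, 44 (10.4%) held the motif, beside 850 of 7898 (10.8%) off chromosome 3 and 7.24% of all 27025 promoters. The median difference was 0.55 in chromosome 3 genes with the motif and 0.39 in the 378 without it. Off chromosome 3 the medians were -0.02 and -0.04. Genes with and without the motif were not matched by level, and an effect of the motif was not tested.

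The lists that follow are read beside the 508 chromosome 3 genes, of which 83.7% were higher and 27.8% had no overlap. Genes that process RNA or make protein were the most even of the 7 chromosome 3 lists. All 32 of the list that passed the filter were higher in the high set, with a median difference of 0.52, and the sets did not overlap for 23 of them. The list was bright, with array means of 11.95 to 12.72. In the group of chromosome 3 genes with the highest mean level, 98.4% were higher and 51.2% had no overlap. Whether the list differs from chromosome 3 genes of like level was not tested. Eif4e, the mRNA cap-binding translation factor, read 13.75, 14.12 and 13.76 in Eμ-Myc replicate 1 and Eμ-Myc;Eμ-TTP-1 replicates 1 and 5, the order used for the values of the high set from here on. The rest read 13.16 to 13.58 with a median of 13.42. Eif4e was thus higher in each high lymphoma, with a difference of 0.46, though its other probe sets differed by 0.01 to 0.28. Rbm8a, a core protein of the exon junction complex, read 13.88, 13.97 and 13.82, against 13.01 to 13.62 in the rest with a median of 13.28. Srsf11, a splicing factor, read 14.62, 14.18 and 14.12, against 13.63 to 13.96 with a median of 13.88. Neither gene's sets overlapped, with differences of 0.61 and 0.48. The ribosomal protein gene Rps3a1, whose probe set is very bright, differed by 0.03, with all 9 arrays between 16.33 and 16.51.

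Genes of growth signalling had 21 of 25 higher, a median difference of 0.40 and no overlap for 9, close to the chromosome as a whole in the share that was higher. Nras, a RAS family GTPase that is mutated in many blood cancers, read 11.58, 11.24 and 11.51. The rest read 10.60 to 11.19, with a median of 10.83. The highest of the rest lay just below the lowest of the high set, the difference was 0.56, and the other Nras probe sets differed by 0.51 to 0.61. Rap1a, a related GTPase that regulates integrin adhesion, read 14.28, 14.06 and 14.26, against 13.62 to 13.85 with a median of 13.74. Its sets were clearly apart, with a difference of 0.45. Jtb was 0.39 higher with no overlap, whereas Hdgf, a growth factor gene, differed by 0.08 with overlap.

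Of 12 survival, death and NF-kB genes, 10 were higher in the high set, with a median of 0.29 and no overlap for 2, again close to the chromosome in the share that was higher. Ube2d3, a ubiquitin-conjugating enzyme, read 15.19, 15.26 and 14.96, or 15.14 ± 0.16 (SD, n = 3). The rest read 14.63 to 14.83, or 14.75 ± 0.08 (SD, n = 6). All 3 high values exceeded the rest. Mcl1, an anti-apoptotic BCL2 relative, read 14.27, 14.14 and 14.24, against 13.51 to 14.26 in the rest with a median of 13.89. One lymphoma of the rest, Eμ-Myc replicate 2 at 14.26, lay among the high values. The Mcl1 difference was 0.33, and its 5 other probe sets differed by 0.44 to 0.63. Sh3glb1, which encodes a BAX-binding protein, was 0.59 higher with no overlap (other probe sets 0.34 and 0.39), and Pdcd10 was 0.25 higher with overlap.

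Metabolic and mitochondrial genes had 29 of 30 higher, a median of 0.43 and no overlap for 10, beside the 27.8% of the chromosome. Phgdh, the first enzyme of serine synthesis, read 14.82, 14.63 and 14.42, against 13.55 to 14.14 with a median of 14.01. The sets did not overlap and differed by 0.67. The Phgdh probe set is one that can bind related sequences, and the gene's other probe sets differed by 0.68 to 0.94. Ndufb5, a subunit of respiratory complex I, read 14.33, 14.46 and 14.43, against 13.64 to 14.17 with a median of 14.05. It was higher in each high lymphoma than in any other, by 0.44 on average. The lactate transporter gene Slc16a1 differed by 0.31 and the fatty acid binding protein gene Fabp5 by 0.09, both with overlap, and Fabp5's other probe set differed by 0.37.

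Among cell cycle, DNA and chromatin genes, 26 of 27 were higher, with a median of 0.41 and no overlap for 8, a share near that of the chromosome. Cks1b, a cyclin-dependent kinase subunit, read 15.60, 15.80 and 15.87, within the 15.62 to 15.93 of the rest save for the first value. Its difference was 0.01. Smc4, a condensin subunit, read 14.02, 14.68 and 14.62 against 13.94 to 14.88, a difference of 0.04. The other probe sets of these genes differed by 0.14 (Cks1b) and by 0.09 and 0.13 (Smc4). Anp32e, a histone chaperone, differed by 0.32 and the splicing regulator gene Mbnl1 by 0.02, both with overlap, and Mbnl1's other probe set differed by 0.48.

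**Figure D4:**
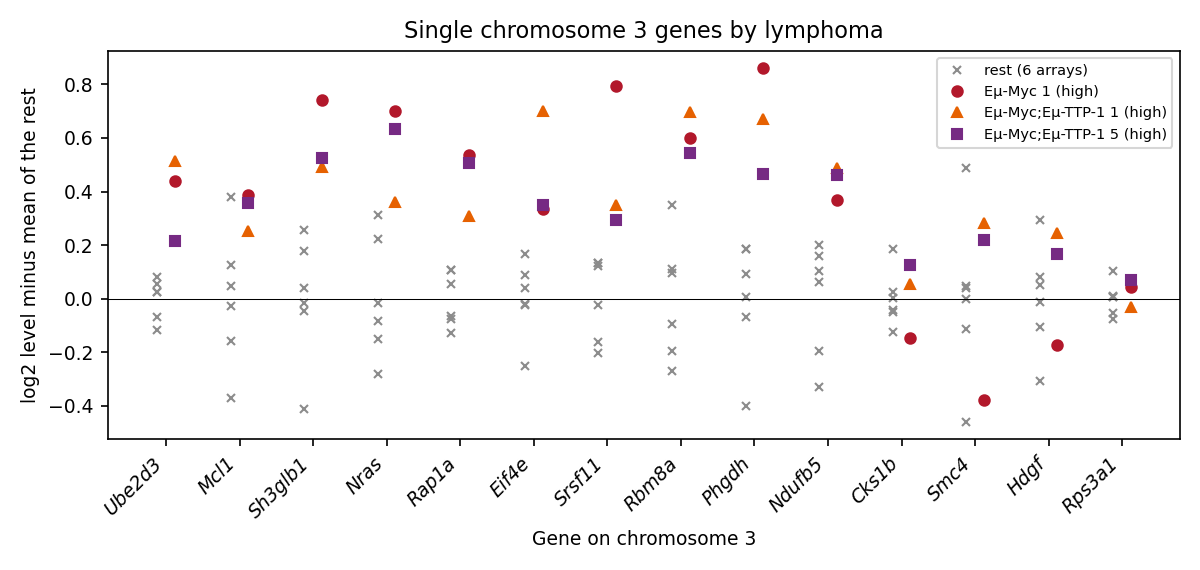
Log2 level of 14 chromosome 3 genes minus the mean of the rest (vertical axis), with coloured symbols for the 3 high lymphomas and grey crosses for the other 6. From Ube2d3 to Ndufb5 all coloured symbols exceed the crosses except for Mcl1, and for Cks1b, Smc4, Hdgf and Rps3a1 the sets overlap.

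Lymphocyte genes on chromosome 3 were less even: 14 of 23 were higher, with a median of 0.19 and no overlap for 2. That median was 0.09 without Eμ-Myc;Eμ-TTP-1 replicate 1, and 0.12 without either Eμ-Myc replicate 2 or Eμ-Myc;Eμ-TTP-1 replicate 2. Ctss, the protease cathepsin S, read 14.04, 14.25 and 14.04, against 11.80 to 14.57 with a median of 13.79. Eμ-Myc;Eμ-TTP-1 replicate 2 held the lowest value, and the difference was 0.47 with overlap. The tetraspanin gene Cd53 differed by -0.02 (other probe set -0.45), the adhesion receptor gene Vcam1 by 0.13 (others 0.22 and 0.37) and Bank1, a B cell adaptor, by 0.89, all with overlap. Lef1, a transcription factor of early lymphocytes, read 10.38, 11.98 and 12.39, against 2.06 to 12.09 with a median of 10.80. Only Eμ-Myc replicate 2 at 2.06 and Eμ-Myc;Eμ-TTP-1 replicate 2 at 4.90 were low, so the mean difference of 2.98 rests on 2 arrays of the rest.

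The chromosome 3 genes that were lower in the high set included those of white blood cells. Of 12 genes of other white and red cells, 9 were lower, with a median of -1.33. S100a8, a subunit of the granulocyte protein calprotectin, read 8.79, 7.91 and 7.40, against 6.88 to 13.35 with a median of 12.52. Its partner S100a9 read 8.05, 7.24 and 6.14, against 4.76 to 12.74 with a median of 11.80. Both were low in every high lymphoma, but lowest in a lymphoma of the rest, Eμ-Myc;Eμ-TTP-1 replicate 3. S100a6, a calcium-binding protein gene of many cell types, read 9.86, 8.88 and 9.74, against 10.50 to 14.44 with a median of 12.16. It was the gene with no overlap in this direction, with a difference of -2.82. S100a4 differed by -2.11, and Gpr171, Pla2g12a, Camk2d and Adgrl2, the other lowest genes, by -1.82, -1.68, -1.59 and -1.55, all 5 with overlap.

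At the upper end were genes whose levels varied far more than the shift of the chromosome. Bcar3, an adaptor of integrin signalling, read 10.25, 8.03 and 8.80, against 2.65 to 7.70 with a median of 5.02. Pfn2, an actin-binding profilin, read 9.11, 10.85 and 9.16, against 5.19 to 8.20 with a median of 6.08. Both were higher in all 3 high lymphomas, with differences of 3.90 and 3.38, and Pfn2's other probe sets differed by 3.06 to 3.96. Zmat3, which is known as a p53 target, read 8.31, 11.19 and 10.89, against 4.99 to 8.85, a difference of 3.31 with overlap. Cth, the cysteine-forming enzyme cystathionine gamma-lyase, read 10.10, 11.01 and 10.47, against 6.73 to 10.11 with a median of 8.05. Its difference was 2.25, and Eμ-Myc;Eμ-TTP-1 replicate 3 reached the lowest high value. 1110032F04Rik, Spry1 and Zfp704 differed by 2.45, 2.38 and 2.32, with overlap.

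The other 19 chromosomes were examined for a shift between the same sets. Their median differences ran from -0.13 (chromosome 12) to 0.13 (chromosome 19). The lowest exact permutation p over the 84 splits of the arrays into 3 and 6 was 0.0833 (two-sided, chromosomes 1 and X). Each adjusted p over the 19 chromosomes was 0.517 or higher. The smallest p this design allows is 0.0119, which would be 0.226 after adjustment if 1 chromosome reached it. Chromosomes 17 and 19 had medians of 0.33 in Eμ-Myc;Eμ-TTP-1 replicate 5, and no other high array had another chromosome 0.15 or more away from 0. Lymphomas of the rest had medians as far from 0: 0.50 on chromosome 16 in Eμ-Myc replicate 4, 0.34 on chromosome 12 in Eμ-Myc replicate 3, and -0.46 on chromosome 19 in Eμ-Myc;Eμ-TTP-1 replicate 3.

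Off chromosome 3, 0 of 9637 genes passed the limma test at a Benjamini-Hochberg adjusted p under 0.05 (0%), in either direction. Adjusted p-values of the limma fit began at 0.380. Without adjustment, 664 genes (6.89%) had a p under 0.05, of which 202 (2.1% of genes tested) were higher and 462 (4.79%) lower in the high set. That count was 998 without Eμ-Myc;Eμ-TTP-1 replicate 3 and 1427 with array weights. The weights favoured 1 array of the rest, Eμ-Myc;Eμ-TTP-1 replicate 4, at 6.39, and the next highest was 1.48 in Eμ-Myc;Eμ-TTP-1 replicate 1. Over all tested genes off chromosome 3, 42.4% had a fitted difference above 0. Of the 664 genes, 69.6% were lower. Among the genes under the same p after each array was centred on its median gene off chromosome 3, 56.3% were lower, and after quantile normalisation 55.1%. Without the filter on low values 54.2% were lower, and with the filter at 3 arrays in place of 4, 69.4%. Leaving out Eμ-Myc replicate 1 gave 2 genes past the threshold, Aqp3 (higher, limma adjusted p 0.0334) and Smoc1 (lower, limma adjusted p 0.0193). Aqp3 was near background in the rest. Smoc1 was so in the 2 high arrays left (2.79 and 2.36) but at 10.23 in the omitted one. In the rest, Smoc1 was also near background in Eμ-Myc replicates 2, 3 and 4 (2.15 to 2.42). It read 6.88 to 7.94 in Eμ-Myc;Eμ-TTP-1 replicates 2, 3 and 4, and that fit held no high Eμ-Myc array. Leaving out Eμ-Myc;Eμ-TTP-1 replicate 3 gave 2 others, Oaf (-3.43, limma adjusted p 0.0220) and Tspan31 (-2.01, limma adjusted p 0.0304). Oaf overlapped between the sets, at 3.07, 6.62 and 6.42 in the high set and 6.01 to 6.53 in Eμ-Myc replicates 2, 3 and 4. It read 10.44 and 9.70 in Eμ-Myc;Eμ-TTP-1 replicates 2 and 4, and 3.46 in the omitted array. With the other arrays left out in turn, 0 genes passed.

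The 12 higher genes with the smallest p included 9 without overlap between the sets, beside 1.14% of the genes off chromosome 3. A choice by p favours genes without overlap, so that count in part restates the choice. The limma adjusted p of the 12 was 0.380 to 0.664, and the fitted differences of the 10 other than Aqp3 and Abhd6 were 0.72 to 1.55. Aqp3, a water and glycerol channel, read 7.53, 5.96 and 5.76 and was near background in the rest, at 3.94 to 4.13. Abhd6, a lipid hydrolase, read 7.76, 8.39 and 6.33, against 2.22 to 4.83. Both were higher in all 3 high lymphomas, and their levels in the rest were too low for a firm fold. Casp1, the inflammasome protease, read 9.19, 8.76 and 9.17, against 6.93 to 8.18 with a median of 7.55. Casp1 was higher in each of the 3 than in any of the rest, with a fitted difference of 1.55 (SE 0.30, limma adjusted p 0.611). The clock gene Per1 (0.72) overlapped, and Ccs, the copper chaperone of superoxide dismutase (0.73), did not. The other 7 were Zdhhc14, Them6, Zfp523, Abhd8, Hsdl2, 6330415G19Rik and Znrd2. Zdhhc14, Zfp523 and 6330415G19Rik lie on chromosome 17, and Ccs and Znrd2 on chromosome 19. Both chromosomes had medians of 0.33 in Eμ-Myc;Eμ-TTP-1 replicate 5, and chromosome 19 had -0.46 in Eμ-Myc;Eμ-TTP-1 replicate 3. Genes without overlap in this direction were 20 of 518 on chromosome 17 and 13 of 371 on chromosome 19. The part of these shifts in the gene differences was not tested.

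The 12 lower genes with the smallest p included 10 without overlap, beside 1.77% of the genes off chromosome 3, a count that the choice by p likewise favours. The 12 had differences from -2.76 to -0.70 and limma adjusted p of 0.380 to 0.611. Wwc2, a scaffold protein gene of the Hippo pathway, read 5.32, 5.06 and 5.57, against 7.13 to 8.56 with a median of 8.39. All 3 high lymphomas were low, the fitted difference was -2.76 (SE 0.38), and the other Wwc2 probe sets differed by -2.41 and -2.30. Klf10, a transcription factor induced by TGF-beta, read 7.03, 7.40 and 8.06, against 8.36 to 9.93 with a median of 9.82. The sets did not overlap, though Eμ-Myc replicate 3 at 8.36 lay close to the high set, and the fitted difference was -2.13 (SE 0.37). Tspan31, a tetraspanin gene, differed by -1.78, but its other probe sets ranged from -2.11 to 0.03. The forkhead factor gene Foxo4 differed by -1.13 with overlap, the RNA-binding protein gene Rbms1 by -0.99 and Tspoap1 by -2.37, both without overlap. The other 6 were Ints6l, Caprin2, Pla2g15, Dscc1, Lrrfip1 and Fgf11.

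Gene lists off chromosome 3 had 0 members past the adjusted threshold. Genes of DNA replication and mitosis leaned lower: 25 of 26 S phase genes, with a median fitted difference of -0.35, and 20 of 20 mitosis genes, with a median of -0.43. Over the genes tested off chromosome 3, 42.4% had a difference above 0. At an unadjusted limma p under 0.05, 8 S phase and 5 mitosis genes were lower, beside 4.79% of the genes off chromosome 3. Without Eμ-Myc replicate 1 the medians were -0.17 and -0.15. The mean of the S phase list was 11.03 in that array and 11.54 to 12.13 in the other 8. The mean of the mitosis list was 11.01 in it and 11.54 to 12.33 in the others. Tyms, thymidylate synthase, read 5.95, 8.30 and 7.46, against 7.35 to 8.93 with a median of 8.02, which gives 7.23 ± 1.19 (SD, n = 3) and 8.08 ± 0.53 (SD, n = 6). Ccnb2, which encodes cyclin B2, read 10.83, 11.96 and 11.71, against 11.63 to 12.54 with a median of 12.38 (-0.82, SE 0.25). Only Eμ-Myc replicate 1 lay below the range of the rest for either gene. Cdc6 and Nuf2 differed by -0.85 and -0.69, and Chaf1b by 0.53.

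The oncogene Myc read 14.21, 14.14 and 14.01, against 13.60 to 14.15 with a median of 13.93. The sets overlapped, and the fitted difference was 0.21 (SE 0.15, limma adjusted p 0.761). Of 27 MYC-activated genes, 20 had a difference above 0, with a median of 0.08, from Shmt2 (-0.21) to Nolc1 (0.55). Zfp36 differed by 0.41 (SE 0.24, limma adjusted p 0.728), with overlap. The p53 and RB list had 11 of 18 higher with a median of 0.19, which was 0.04, 0.07 and 0.11 without Eμ-Myc;Eμ-TTP-1 replicate 1, replicate 5 and Eμ-Myc replicate 1. The BCL2 family had 5 of 11 higher with a median of -0.02 that became 0.02 after median centring, 0.05 after quantile normalisation and 0.37 without Eμ-Myc replicate 1.

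The 9 genes of class II antigen presentation were all higher on average in the high set, with a median of 1.17, and none passed the adjusted or the unadjusted threshold. Ciita, the master activator of these genes, read 9.89, 9.67 and 10.05, against 4.41 to 10.28 with a median of 8.53. H2-Aa, a class II chain, read 13.50, 13.33 and 13.76, against 10.54 to 14.03 with a median of 12.91. The high set was uniform and lay inside the range of the rest, in which Eμ-Myc;Eμ-TTP-1 replicates 2 and 4 were low for both genes. The list's median was 0.72 without Eμ-Myc;Eμ-TTP-1 replicate 2 and 2.06 without Eμ-Myc replicate 1. H2-Oa had the smallest difference, 0.14.

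Mature B cell genes had 9 of 12 higher and a median of 1.10, which was 0.61 without Eμ-Myc;Eμ-TTP-1 replicate 2. The mean of that list was 9.24 to 9.46 in the high set and 6.85 to 9.12 in the rest. Ltb, which encodes lymphotoxin beta, read 12.68, 10.39 and 11.82, against 6.93 to 12.83 with a median of 9.01. Its difference was 2.42, beside 2.27 for the complement receptor gene Cr2, -0.57 for Klf2 and -0.59 for Tnfrsf13c, all with overlap. Genes of the NF-kB response, which share Ltb with that list, had 12 of 16 higher and a median of 0.55, or 0.17 without Eμ-Myc replicate 1 and 0.83 without Eμ-Myc;Eμ-TTP-1 replicate 1. In that list Relb, an NF-kB subunit, read 9.62, 7.85 and 8.24, against 5.57 to 8.79 with a median of 6.58, while Rel differed by -0.21 and Bcl2l1 by -0.58. Precursor B cell genes had 6 of 13 higher, with a median of -0.27 that ranged from -0.87 (without Eμ-Myc replicate 1) to -0.08 (without Eμ-Myc;Eμ-TTP-1 replicate 5). Pan-B genes had 5 of 12 higher and a median of -0.04, or 0.01 after median centring and -0.12 without Eμ-Myc replicate 1, with array means of 12.45 to 12.82 in the high set and 11.83 to 12.93 in the rest.

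Granulocyte genes off chromosome 3 were lower for 7 of 7, with a median of -2.75, or -1.80 without Eμ-Myc;Eμ-TTP-1 replicate 2. The list mean was 3.78, 3.69 and 3.55 in the high set, and 3.29 to 8.80 in the rest. Of 14 listed genes named on the array, 7 passed the filter off chromosome 3 and 3 on it. A gene at background in the high set could pass only through arrays of the rest. The count of 7 lower genes and the size of the median are thus fixed in part by the filter. Eμ-Myc;Eμ-TTP-1 replicates 3 and 4, at 3.29 and 4.33, were also low, so a low level was not particular to the high set. Mpo, the myeloperoxidase of granule precursors, read 2.71, 2.72 and 2.27, against 2.26 to 10.78 with a median of 6.63. Ngp, a granule protein gene, read 5.20, 5.03 and 3.29, against 3.12 to 10.88 with a median of 9.58. S100a8 and S100a9 on chromosome 3 were low in the same 3 lymphomas, and the part of granulocytes in their difference was not tested. In bulk RNA, fewer cells of a type and less RNA per cell cannot be told apart. Mmp9 had the smallest difference of the list, -0.24.

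**Figure D5:**
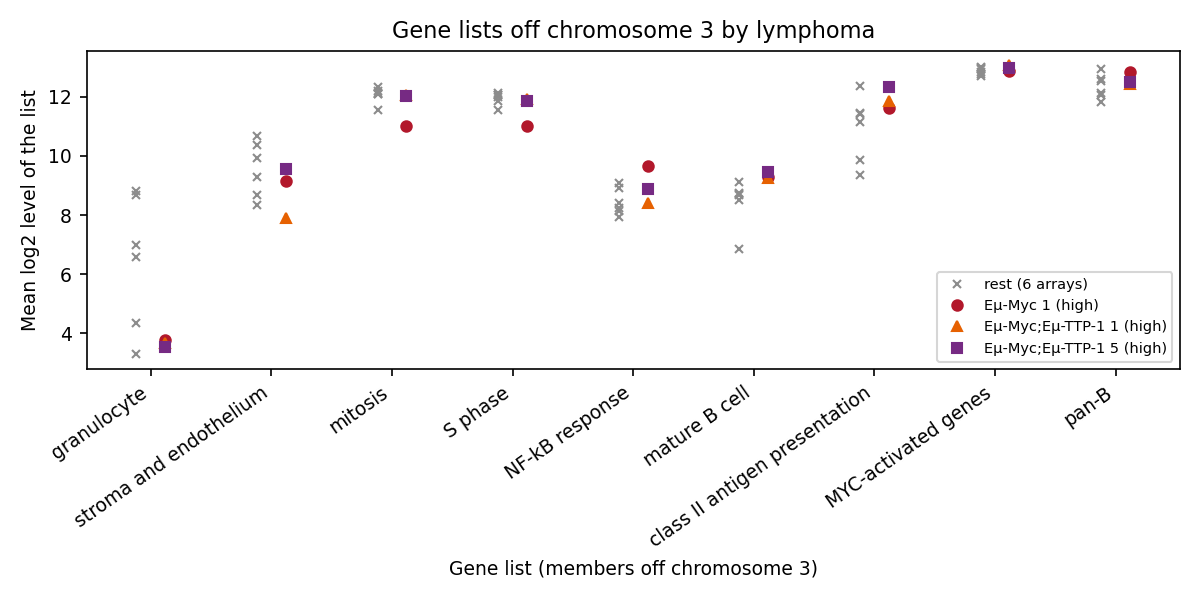
Mean log2 level of 9 gene lists, members off chromosome 3, in each lymphoma; coloured symbols are the 3 high lymphomas and grey crosses the other 6. The high set is low for granulocyte genes (3.55 to 3.78) along with some of the rest, Eμ-Myc replicate 1 is lowest for mitosis and S phase genes, and the sets overlap for all lists except mature B cell genes.

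Stroma and endothelium genes had 12 of 14 lower and a median of -0.66, or -0.28 without Eμ-Myc;Eμ-TTP-1 replicate 1 and -0.40 without Eμ-Myc;Eμ-TTP-1 replicate 2. The collagen genes Col1a1 and Col3a1 differed by -1.45 and -1.38, and the endothelial gene Pecam1 by 0.61. Macrophage genes had 11 of 15 lower and a median of -0.15, which turned to 0.28 without Eμ-Myc replicate 1. Interferon response genes had 6 of 11 higher with a median of 0.18, or -0.14 without Eμ-Myc replicates 2 and 3, 1.59 without Eμ-Myc replicate 1 and -0.61 without Eμ-Myc;Eμ-TTP-1 replicate 1. Unfolded protein response genes had 6 of 13 higher (-0.07), glycolysis and hypoxia genes 8 of 15 (0.06) and oxidative phosphorylation genes 6 of 16 (-0.07). Without Eμ-Myc replicate 1 these medians were 0.11, 0.11 and 0.01. T cell genes had 3 of 6 higher (0.24), dendritic and plasma cell genes 3 of 4 (1.06) and erythroid genes 0 of 2 (-0.14). Without Eμ-Myc replicate 1 the T cell median was 1.08 and that of dendritic and plasma cells was -0.40. Without Eμ-Myc;Eμ-TTP-1 replicate 2 the T cell median was -0.19. The natural killer cell list had 1 gene past the filter, Klrd1, with a difference of 0.31. Xist, transcribed from the inactive X of females, was over 14 in Eμ-Myc replicates 2 and 3 and Eμ-Myc;Eμ-TTP-1 replicates 2 and 5 and under 3 in the others, so 1 of the 3 high and 3 of the 6 other lymphomas read as female.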

How the data were processed

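Each of 9 lymphomas was measured on its own Affymetrix mouse array. The authors deposited intensity values on a linear scale, made with GCRMA per the submitters' processing notes (version not given in the sources used here). Scanner files were not analysed here, so scan batches could not be examined.

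Log2 was taken without a pseudocount. The platform annotation gave 34945 of 45037 probe sets 1 gene, 932 several and 9160 none listed, and 34741 matched a gene of GRCm38.p6, used for names, chromosomes and gene order. The probe set with the highest mean stood for its gene, and genes over log2 4 (intensity 16) in at least 4 arrays were kept, of which 458 had probe sets ending in _x_at. All genes were fitted with limma 3.58.1 in R 4.3.3 (set and genotype, eBayes, two-sided), and p-values were adjusted by Benjamini-Hochberg over genes off chromosome 3 (threshold 0.05). Chromosome 3 differences are plain means and list differences off chromosome 3 are fitted. The fit was checked on simulated data. Limma p-values set a difference against the spread between these samples, with each gene's spread drawn towards that of all genes. Exact permutation p-values rank the observed split among all splits of these arrays.

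The members and the 29 gene lists were chosen with earlier results of these data known. Named genes were the 4 genes of highest mean of each chromosome 3 list, the 8 with the largest and smallest difference on chromosome 3 (mean over log2 6), the 12 with the smallest p in each direction off it, the 2 most extreme members on either side of a described list, Myc, Zfp36, Mcl1, Nras and Xist; any others, and the genes whose promoters are shown, were chosen after their values were seen. Alternatives concerned the filter, probe sets, normalization, pseudocount, covariates, weights and arrays left out.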

Additional observations from a re-analysis of the deposited data

Results flagged for a closer look

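In 8 of 98 sets of values, 1 array of the 6 in the rest lay far from the other 5 by Dixon's criterion; chance flags about 1 in 20, or 4.9. In the chromosome 3 growth signalling list, Eμ-Myc replicate 4 had a mean of 10.57, against 10.11 to 10.26 in the others. In the mitosis list Eμ-Myc replicate 3 had a mean of 11.54, against 12.08 to 12.33, and Klf10 read 8.36 in the same array, against 9.47 to 9.93. Eμ-Myc;Eμ-TTP-1 replicate 2 had a mature B cell mean of 6.85, against 8.52 to 9.12, an erythroid mean of 5.03, against 4.50 to 4.66, and a Ctss level of 11.80, against 13.69 to 14.57. Eμ-Myc replicate 4 also had the interferon response list at 9.37, with the other 5 at 6.36 to 7.47. Rbms1 read 11.57 in Eμ-Myc;Eμ-TTP-1 replicate 3, against 11.95 to 12.08.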

How the results depend on the processing

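The chromosome 3 median difference was 0.39 to 0.46 as each array was left out, and 83.7% of genes higher became 78.5% to 85.6%. Without the filter on low values the median over all 913 genes was 0.088, since genes under the filter, which make up the difference, had a median of 0.03. Under the 15 other alternatives 0 genes off chromosome 3 passed the adjusted threshold (lowest limma adjusted p 0.0711 to 0.647), and 0 to 2 passed as each array was left out. Over arrays left out, some list medians moved by more than the spread between replicates. They were those of the BCL2 family (-0.32 to 0.37), interferon response (-0.61 to 1.59) and unfolded protein response (-0.10 to 0.11). That of the sex-linked genes Xist, Uty, Kdm5d and Eif2s3y also did (-1.03 to 3.36, beside 1.14 with all arrays). Without Eμ-Myc replicates 2 and 3, an alternative chosen after seeing the data, the sex-linked median was -0.58. As arrays were left out, sign changes within that spread occurred in the medians of T cell, macrophage, glycolysis, oxidative phosphorylation, pan-B and dendritic and plasma cell genes. No paired analysis was possible because each replicate number lay in 1 set only, 1 and 5 in the high set and 2, 3 and 4 in the rest. The median SE off chromosome 3 was 0.23, and a gene that missed the threshold is not shown to be equal.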
